A study of Mus musculus with 6 samples.

Results

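Chemokines and their receptors were followed in mouse skeletal stem cells sorted from the Achilles tendon-to-bone interface, the graded tissue that anchors a tendon in bone. The genes were taken from a table of counts by symbol: all names of the families Ccl, Cxcl, Ccr, Cxcr and Ackr that end in a number, with or without a letter, plus Cx3cl1, Cx3cr1 and Xcl1. This gave 60 of 26130 genes. The groups were injured (n = 3), from interfaces with a partial injury, uninjured (n = 1) and sham control (n = 2). All cells came from C57BL/6 mice, and the series text places the profiling at day 7 after injury. RNA input was 150 pg per library, amplified with a low-input SMARTer kit, per the labels. The labels do not give age, sex, the gates of the sort or how many mice a library came from. The p-values below therefore measure how far these libraries lie apart, some of which may be technical. The uninjured library is named a sham in its description label and uninjured in its title and treatment label. It was therefore kept apart from sham control in the first comparison and joined to it, as all non-injured libraries (n = 3), in the second.

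Chemokines are small secreted proteins that bind the sugar chains of the extracellular matrix and steer leukocytes along concentration gradients. They signal through receptors coupled to G proteins, while atypical receptors (Ackr) take chemokines up without that signal and so shape the gradients. In bone, stromal cells that make Cxcl12 hold haematopoietic cells in the marrow through its receptor Cxcr4, and after an injury stromal cells call in neutrophils through Cxcr2 ligands and monocytes through Ccr2 ligands.

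Library totals ranged from 37506188 to 51089267 counts, and between 14183 and 17281 genes had a count. Ribosomal RNA took 14.7% of counts in injured 1 and 15.0% in sham 1, against 2.89% to 5.32% elsewhere. Injured 1 and sham 1 were also the richest in blood cell transcripts. The summed level of 12 macrophage markers was 4937, 1243 and 38.4 CPM in injured 1, 2 and 3, against 182 CPM in the uninjured library and 2987 and 47.3 CPM in sham 1 and 2. For 11 neutrophil markers it was 6395, 573 and 4.82 CPM in injured 1, 2 and 3, against 814 CPM in the uninjured library and 10070 and 24.1 CPM in sham 1 and 2. Values are given in CPM, counts scaled to a common library size with factors from the trimmed mean of M-values (TMM). They measure a share of RNA, in which fewer cells of a type and less RNA per cell cannot be told apart. Of the genes known to mark mouse skeletal stem cells, Itgav and Cd200 were detected in every library (from 31 to 160.2 CPM). The 5 genes that such sorts select against (Ptprc, Tek, Thy1, Enpep and Eng) summed to 121, 54.5 and 18.2 CPM in injured 1, 2 and 3, against 97.6 CPM in the uninjured library and 297 and 0.663 CPM in sham 1 and 2.

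Of the 60 genes, 10 had no count in any library, 50 had at least 1 count somewhere and 19 had a count in all 6 libraries. The genes without any count were the ligands Xcl1, Ccl1, Ccl26, Ccl21c, Cxcl11 and Cxcl15 and the receptors Ccr3, Ccr6, Cxcr1 and Cxcr3. The members summed to 3038, 1724 and 1545 CPM in injured 1, 2 and 3, against 1606 CPM in the uninjured library and 1948 and 2475 CPM in sham 1 and 2. Only 7 genes stood at 10 CPM or more in every library: the ligands Cxcl1, Cxcl2, Cxcl12, Cxcl14, Ccl7 and Cx3cl1 and the atypical receptor Ackr3. Per kilobase of the longest coding transcript (GENCODE M21), the mean over the 6 libraries was highest for Cxcl1 at 409.8 CPM per kb. Ccl7 followed at 106, Ccl2 at 103, Ackr3 at 98.3, Cxcl2 at 77.7, Cxcl12 at 69.6, Cxcl14 at 60.6 and Cxcl5 at 57.5 CPM per kb. The libraries spread too widely to order these neighbours: Cxcl1 alone ranged from 83.9 to 901 CPM within sham control. Among the 19 genes counted everywhere, Cxcl12 varied least, by 2.07-fold between its lowest and highest library, and Ackr3 by 2.46-fold.

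**Figure D1:**
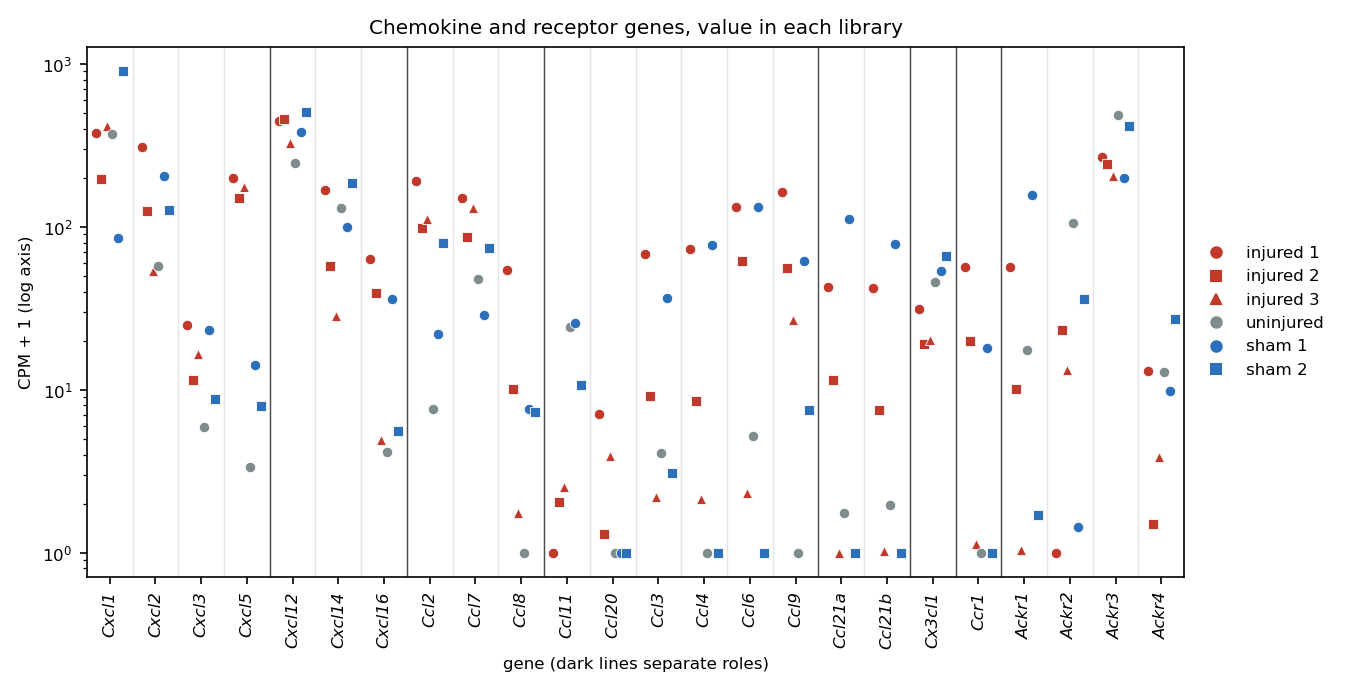
CPM + 1 on a log axis for each of the 24 genes that averaged 10 CPM or more or had an unadjusted p under 0.05, with 1 point per library and dark lines between roles. Cxcl5 stands between 149 and 198 CPM in the injured libraries and at most at 13.2 CPM elsewhere, whereas Cxcl12 and Ackr3 overlap between groups.

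The first comparison asked how cells of the injured interface differ from sham control, and the second set them against all non-injured cells. In every injured library Cxcl5, Ccl2, Ccl7, Cxcl10 and Ccl20 held a larger share of mRNA than in any sham or uninjured library. Ccl11 and Cx3cl1 held a smaller one. Against sham control 16.3% of tested members did not overlap, beside 21% of all genes, and against all non-injured cells 19.4%, beside 16.3%. Cxcl12, Cxcl1 and Ackr3, the members with the highest mean CPM, overlapped between injured and sham libraries. No member passed an adjusted p of 0.05 by edgeR in either comparison, nor did any other gene (0% of 16752 and of 14110 tested). Differences below are therefore values with their errors.

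A low-count filter let 43 of the 60 genes into the first test and 36 into the second. In the first, where the smallest group was 1 library, a gene could pass on 1 library alone, as Cxcr2 did. In the second each group held 3 libraries, and a gene could pass through the group where it is high. Against sham control 2 members were higher at an edgeR unadjusted p under 0.05 (Cxcl5 and Ccl20; 2.44% of all genes tested) and 2 were lower (Ccl11 and Cx3cl1; 2.20%). Against all non-injured cells 3 were higher (these and Ccl7; 3.71% of all genes) and 2 lower (Ccl11 and Cx3cl1; 3.72%). Every injured library lay above both sham libraries for 5 of the 43 members (11.6%, beside 11.9% of all genes). It lay above all non-injured libraries for the same 5 of 36 (13.9%, beside 9.23%). For 2 members every injured library lay below, or 4.65% and 5.56%, beside 9.12% and 7.07% of all genes. Taking both directions of the unadjusted p, 4 of 43 members (9.3%) stood beside 4.64% of all genes and 5 of 36 (13.9%) beside 7.43%. Ccl20 is among them and had no count outside injured cells, so it could pass the filter through that group alone. A log2 fold change above 0 was seen for 19 of the 43 members (44.2%) and 20 of the 36 (55.6%), beside 53.7% and 50.1% of all genes. The comparisons share the sham libraries. The median log2 fold change over tested members was -0.12 against sham control and 0.17 against all non-injured cells, beside 0.09 and 0.00 over all genes. Without sham 1 the fitted medians of the members became 2.34 and 1.19, which rest in part on genes without a count in the remaining sham library and so on the prior count. Scaling by library size alone gave a median over all genes of 0.23 against sham control, in place of 0.09 with TMM.

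DESeq2 called Cxcl5 against sham control (adjusted p = 9.28e-13), where 1.43% of all genes were called higher, and no member as lower, where 0.770% were. Against all non-injured cells it called Cxcl5 (adjusted p = 9.97e-10) and Ccl20 (adjusted p = 0.0156) as higher, where 0.992% of all genes were, and Ccl11 (adjusted p = 0.0351) as lower, where 1.45% were. limma-voom called none of the members in either comparison, where it called 0.00597% and 0.0496% of all genes. With sham 1 and injured 1, the libraries richest in blood transcripts, both left out, 12 of 39 members had an edgeR unadjusted p under 0.05 against sham control (30.8%, beside 11% of all genes). Cxcl5, Ccl4, Ccl6, Ccl9, Ccr1 and Cxcr4 were then higher and Cx3cl1, Ccl11, Cxcl14, Ccl19, Cxcl1 and Ackr4 lower. That fit rests on sham 2 alone as sham control, which is assumed to vary like the other groups. Ccl4, Ccl6, Ccr1 and Cxcr4 had no count in sham 2. Their fitted differences from sham control therefore depend on the prior count, also where sham 1 alone is left out. Leaving out a single library gave 9 members at that limit without sham 1 (21.4%, beside 6.04% of all genes) and 7 without sham 2 (16.3%, beside 10.6%). Without injured 1, 2 and 3 it gave 5, 2 and 1 members, beside 4.45%, 2.23% and 3.51% of all genes. Against all non-injured cells 11 members reached it without sham 1 (28.9%, beside 9.75% of all genes), 11 without both sham 1 and injured 1 (32.4%, beside 10.4%) and 8 without sham 2 (20.5%, beside 8.51%).

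**Figure D2:**
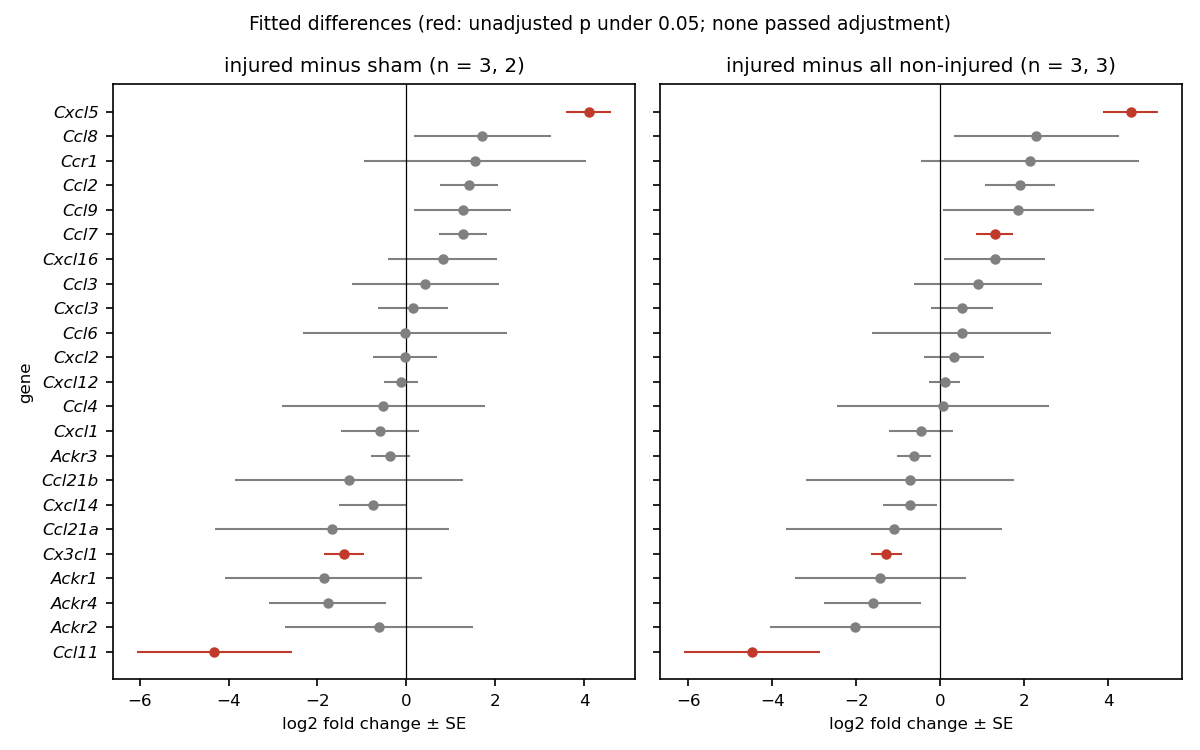
Log2 fold change ± SE from edgeR for 23 genes in both comparisons, ordered by the second, with red marking an unadjusted p under 0.05. Cxcl5 stands far to the right with a short error bar, Ccl11 and Cx3cl1 to the left, and most bars of the other genes cross or come near 0; Ccl20, without a count outside injured cells, has no fitted fold here.

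Among the CXC ligands with a glutamate-leucine-arginine (ELR) motif, which attract neutrophils through Cxcr2, Cxcl5 separated injured from non-injured libraries, while Cxcl1, Cxcl2 and Cxcl3 overlapped. Cxcl5, made by stromal and epithelial cells, stood at 198, 149 and 174 CPM in injured 1, 2 and 3, against 2.36 CPM in the uninjured library and 13.2 and 6.96 CPM in sham 1 and 2. Every injured library was far above every other, and the injured libraries lay close together. Its log2 fold change was 4.11 ± 0.50 (SE; edgeR unadjusted p = 8.97e-05, adjusted p = 0.30) against sham control and 4.53 ± 0.66 (SE; edgeR unadjusted p = 0.000199, adjusted p = 0.211) against all non-injured cells. By p it ranked 5 of 16752 genes in the first test and 13 of 14110 in the second. Over all alternatives run its log2 fold change against sham control lay between 3.72 and 4.64.

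Cxcl1, a broad neutrophil attractant, stood at 374, 197 and 416 CPM in injured 1, 2 and 3, against 372 CPM in the uninjured library and 83.9 and 901 CPM in sham 1 and 2. Sham 1 was the lowest and sham 2 the highest of all libraries, and the injured ones lay between. For Cxcl2, which activated macrophages and stroma both make, the values were 307, 123 and 52.3 CPM in the injured libraries, 56.1 CPM in the uninjured library and 202 and 125 CPM in the sham libraries. Cxcl3 stood at 23.9, 10.4 and 15.6 CPM in the injured libraries, 4.89 CPM in the uninjured library and 22.2 and 7.82 CPM in the sham libraries, below Cxcl5 in every injured library and above it in every other. The log2 fold changes of Cxcl1, Cxcl2 and Cxcl3 against sham control were -0.58 ± 0.88, -0.03 ± 0.71 and 0.15 ± 0.79 (SE), each within about its own error of 0 (edgeR adjusted p from 0.966 to 1), and without sham 2 the sign for Cxcl1 turned (1.97).

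Within a library the shares of the 4 ELR ligands do not depend on scaling. Cxcl5 took 22%, 31.1% and 26.4% of their counts in injured 1, 2 and 3, against 0.542% in the uninjured library and 4.09% and 0.668% in sham 1 and 2. Cxcl1 led in injured 1, 2 and 3 with 41.4%, 41% and 63.3%, and took 85.4% in the uninjured library and 86.5% in sham 2. Sham 1 differed, with 62.9% for Cxcl2. The Cxcl5 share was higher in each injured library than in any non-injured one. The part of blood cells in these shares was not tested.

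**Figure D3:**
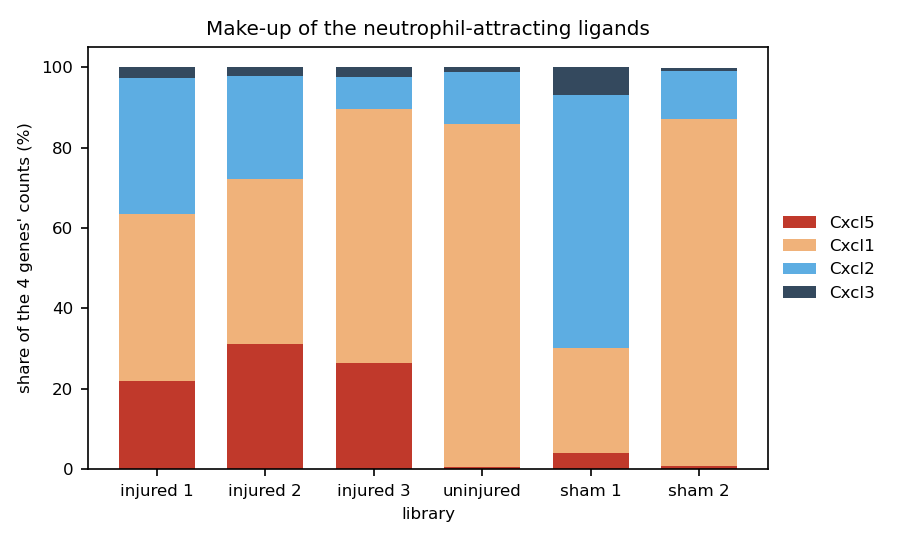
Share, in percent, that Cxcl5, Cxcl1, Cxcl2 and Cxcl3 take of their joint counts in each library, as bars stacked to the whole. The red Cxcl5 part runs from 22% to 31.1% in the 3 injured libraries and from 0.542% to 4.09% in the other 3.

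The promoters of Cxcl1, Cxcl2 and Cxcl3 share letters of the kind bound by NF-kappaB, the transcription factor that carries signals of interleukin 1 and tumour necrosis factor. The letters GGG, any 2 bases and TTTCC, on either strand, occurred in the promoter window (250 bases before to 50 after the start; RefSeq, GRCm38.p6) of 6 of the 44 members with a promoter in the table, or 13.6%, against 1.89% of 27025 genes. The 6 were Cxcl1, Cxcl2, Cxcl3, Ccl20, Ccl9 and Ccr3. Of these, Cxcl1, Cxcl2 and Cxcl3 lie in the same run on chromosome 5 and share a form of the letters, so the 6 may not be independent. Ccr3 had no count in any library. Cxcl5 has no promoter in the table and was not searched. Those of the ELR ligands and of Ccl20, a ligand with counts in injured cells only, are shown because Cxcl1 to Cxcl3 overlapped between groups while Ccl20 did not. All lie on the + strand, at chr5:90891126-90891213 (Cxcl1), chr5:90903772-90903860 (Cxcl2), chr5:90785998-90786067 (Cxcl3) and chr1:83116656-83116725 (Ccl20), with the matching letters in capitals.
Cxcl1: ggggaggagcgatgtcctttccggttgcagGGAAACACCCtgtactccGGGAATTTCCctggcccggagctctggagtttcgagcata
Cxcl2: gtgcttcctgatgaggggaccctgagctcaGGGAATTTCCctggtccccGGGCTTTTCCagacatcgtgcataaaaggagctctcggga
Cxcl3: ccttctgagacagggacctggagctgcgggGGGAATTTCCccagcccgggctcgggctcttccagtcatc
Ccl20: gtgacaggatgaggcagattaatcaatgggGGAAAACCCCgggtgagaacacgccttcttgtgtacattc
Cxcl1 and Cxcl2 held 2 matches each that did not overlap, and all 3 CXC genes carried the same form GGGAATTTCC, between 97 and 62 bases before the start. A match describes letters only, and binding was not measured.

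The ELR ligands also lie side by side. In RefSeq's order on chromosome 5 the run is Cxcl5, Ppbp, Pf4, Cxcl3, Cxcl15, Cxcl1 and Cxcl2. Cxcl5 at 1 end was higher in injured cells while Cxcl1 and Cxcl2 at the other overlapped, and Cxcl15 had no count. The platelet and megakaryocyte ligands between them, Pf4 and Ppbp, are CXC ligands outside the name rule. Pf4, which macrophages also make, stood at 294, 90.5 and 1.05 CPM in the injured libraries, 14.3 CPM in the uninjured library and 115 and 0 CPM in the sham libraries, high in the same libraries as the macrophage markers, whose part in it was not tested. A second run on chromosome 11, in the order Ccl2, Ccl7, Ccl11, Ccl12, Ccl8 and Ccl1, held neighbours that differed in opposite directions.

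**Figure D4:**
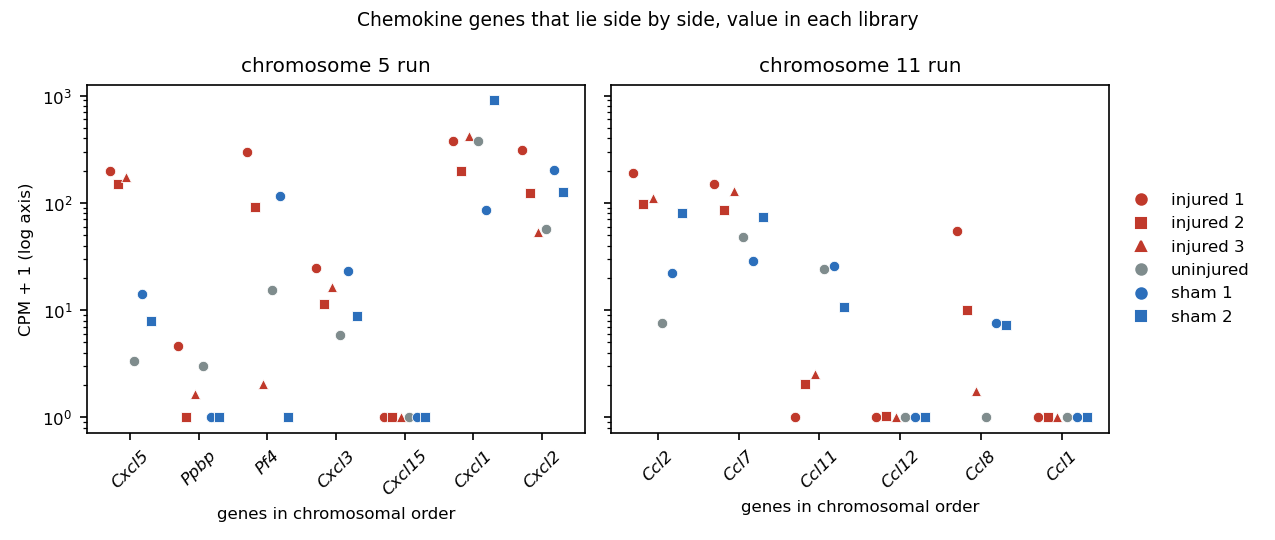
CPM + 1 on a log axis for the genes of the chromosome 5 and chromosome 11 runs, in chromosomal order and evenly spaced, with 1 point per library. Injured libraries lie above all others at Cxcl5, Ccl2 and Ccl7 and below them at Ccl11, while Ccl1 and Cxcl15 have no count.

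Ccl2 and Ccl7 attract monocytes through Ccr2 and are made by many stromal cells. Ccl2 stood at 189, 96.9 and 110.5 CPM in injured 1, 2 and 3, against 6.62 CPM in the uninjured library and 21 and 78.6 CPM in sham 1 and 2. The groups did not overlap, although sham 2 came near injured 2, and the uninjured library was far below both. Its log2 fold change was 1.41 ± 0.65 (SE; edgeR unadjusted p = 0.069, adjusted p = 0.865) against sham control and 1.89 ± 0.83 (SE; edgeR unadjusted p = 0.056, adjusted p = 0.695) against all non-injured cells. Ccl7 stood at 148, 85.5 and 129 CPM in injured 1, 2 and 3, against 47 CPM in the uninjured library and 27.8 and 72.7 CPM in sham 1 and 2, again with no overlap, and averaged 121 ± 32.2 CPM in injured cells (SD, n = 3) and 49.2 ± 22.5 CPM in non-injured cells (SD, n = 3). Its log2 fold change was 1.27 ± 0.54 (SE; edgeR unadjusted p = 0.0516, adjusted p = 0.865) against sham control and 1.29 ± 0.43 (SE; edgeR unadjusted p = 0.0196, adjusted p = 0.539) against all non-injured cells. Both kept their direction under every alternative run, but not their size: against sham control the log2 fold change ranged from 0.40 to 2.65 for Ccl2 and from 0.56 to 2.12 for Ccl7. Counts of Ccl2 per count of Ccl7 were 1.27, 1.13 and 0.855 in injured 1, 2 and 3, against 0.141 in the uninjured library and 0.757 and 1.08 in sham 1 and 2, so the uninjured library stood apart from sham control in that ratio.

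Ccl8, a further monocyte ligand, stood at 53.3, 9.1 and 0.749 CPM in the injured libraries, 0 CPM in the uninjured library and 6.62 and 6.27 CPM in the sham libraries, with its highest value in injured 1 and overlap between the groups. Ccl12 had 2 counts in injured 2 and none elsewhere.

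Ccl11 (eotaxin), which draws eosinophils through Ccr3, lies next to Ccl7 and differed in the other direction. It stood at 0, 1.04 and 1.52 CPM in injured 1, 2 and 3, against 23.1 CPM in the uninjured library and 24.5 and 9.72 CPM in sham 1 and 2. Injured 1 had no count of it, and every injured library lay below every other. The mean was 0.854 ± 0.777 CPM in injured cells (SD, n = 3) and 19.1 ± 8.18 CPM in non-injured cells (SD, n = 3). On the log2 scale the difference was -4.32 ± 1.74 (SE; edgeR unadjusted p = 0.0427, adjusted p = 0.865) against sham control and -4.49 ± 1.62 (SE; edgeR unadjusted p = 0.0265, adjusted p = 0.566) against all non-injured cells. Its receptor Ccr3 had no count in any library.

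Ccl20 draws Ccr6-bearing lymphocytes and dendritic cells and is induced in stroma by interleukin 17 and interleukin 1. It had 268, 18 and 135 counts in injured 1, 2 and 3 and none in the uninjured or either sham library, or 6.07, 0.297 and 2.89 CPM against 0. Against a floor of 3 counts over the group the injured mean is at least 75.3-fold higher than in sham control and at least 118-fold higher than in all non-injured cells, a bound for counting error only. Injured 1 gave most of that mean, and the bound does not hold for injured 2 taken alone. Ccr6, the receptor of Ccl20, had no count.

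Of the other CXC ligands, Cxcl12 marks the stroma that houses haematopoietic stem cells. It stood at 443, 454 and 324 CPM in injured 1, 2 and 3, against 244 CPM in the uninjured library and 380.3 and 504 CPM in sham 1 and 2. Only the uninjured library lay below the rest, and injured and sham libraries overlapped. The log2 fold change was -0.12 ± 0.39 (SE; edgeR unadjusted p = 0.765, adjusted p = 0.997) against sham control and 0.11 ± 0.37 (SE; edgeR unadjusted p = 0.775, adjusted p = 0.993) against all non-injured cells. Marrow stroma that is rich in Cxcl12 also expresses the leptin receptor Lepr, which stood at 0, 0.875 and 3.34 CPM in injured 1, 2 and 3, against 163 CPM in the uninjured library and 96 and 20.6 CPM in sham 1 and 2, with every injured library below every other (edgeR unadjusted p = 0.0151, adjusted p = 0.865 against sham control). Of the 8 genes listed for such stroma, Lepr was lower and Esm1 higher against sham control at an edgeR unadjusted p under 0.05, beside 2.20% and 2.44% of all genes. Esm1 stood at 6.25, 2.61 and 1.05 CPM in injured 1, 2 and 3, against 0 in the uninjured library and 0 and 0 in sham 1 and 2. It could pass the filter through injured cells alone. The median log2 fold change of the 8 genes was -0.55, beside 0.09 over all genes.

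Cxcl14, a homeostatic ligand of skin and connective tissue, stood at 167, 56.3 and 27.2 CPM in injured 1, 2 and 3, against 130.2 CPM in the uninjured library and 98.8 and 184 CPM in sham 1 and 2, and differed by -0.76 ± 0.75 (SE; edgeR unadjusted p = 0.344, adjusted p = 0.907) on the log2 scale against sham control. Injured 1 was close to sham 2, while injured 2 and 3 lay below every non-injured library, so the groups overlapped through injured 1. Cxcl16, which is bound to membranes and takes up oxidised lipids, stood at 62.6, 38.4 and 3.92 CPM in the injured libraries, 3.17 CPM in the uninjured library and 35.1 and 4.58 CPM in the sham libraries, high in the 3 libraries with the largest macrophage sums, whose part in it was not tested. Cxcl13, the B cell attractant, reached 3.44 CPM in injured 1 and 8.03 in sham 1 and was under 0.1 CPM elsewhere. Cxcl17 did not exceed 2.65 CPM.

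The ligands of Cxcr3, induced by interferon, were low. Cxcl10 stood at 15.8, 6.49 and 10.8 CPM in injured 1, 2 and 3, against 6.3 CPM in the uninjured library and 0.378 and 3.89 CPM in sham 1 and 2, above every non-injured library in each injured one, although injured 2 and the uninjured library were nearly equal. Against sham control the difference was 2.37 ± 1.36 (SE; edgeR unadjusted p = 0.127, adjusted p = 0.865) on the log2 scale. Exons of Cxcl10 overlap Art3, and those of Cxcl16 overlap Zmynd15, on the opposite strand. Cxcl9 had at most 0.214 CPM in the injured libraries, 2.87 CPM in the uninjured library and 16.8 and 0 CPM in sham 1 and 2. Cxcl11 had no count.

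The CC ligands that myeloid cells make in quantity were highest in injured 1 and sham 1 and overlapped between groups. Ccl3 and Ccl4, the macrophage inflammatory proteins, attract monocytes and lymphocytes. Ccl4 stood at 71.6, 7.58 and 1.14 CPM in injured 1, 2 and 3, against 0 CPM in the uninjured library and 76.6 and 0 CPM in sham 1 and 2. Ccl3 stood at 66.8, 8.09 and 1.2 CPM in the injured libraries, 3.09 CPM in the uninjured library and 35.6 and 2.1 CPM in the sham libraries, and both were low in injured 3 and sham 2. Ccl6 and Ccl9 are rodent ligands of Ccr1. Ccl6 stood at 131, 60.2 and 1.33 CPM in the injured libraries, 4.19 CPM in the uninjured library and 131 and 0 CPM in the sham libraries. Ccl9 stood at 163, 54.7 and 25.6 CPM in the injured libraries, 0 CPM in the uninjured library and 60.4 and 6.46 CPM in the sham libraries. The 12 macrophage and 11 neutrophil markers all had counts in injured 1 and sham 1. In sham 2, 6 of the 12 macrophage markers and 6 of the 11 neutrophil markers were detected, with Cd68, C1qb, Itgam and Adgre1 among those at 0. In injured 3, 11 of each list were detected. The part of such cells in these values was not tested. The log2 fold changes against sham control had large errors, 0.43 ± 1.66 for Ccl3, -0.52 ± 2.29 for Ccl4, -0.03 ± 2.29 for Ccl6 and 1.27 ± 1.09 for Ccl9 (SE), with edgeR adjusted p of 0.879 or more.

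**Figure D5:**
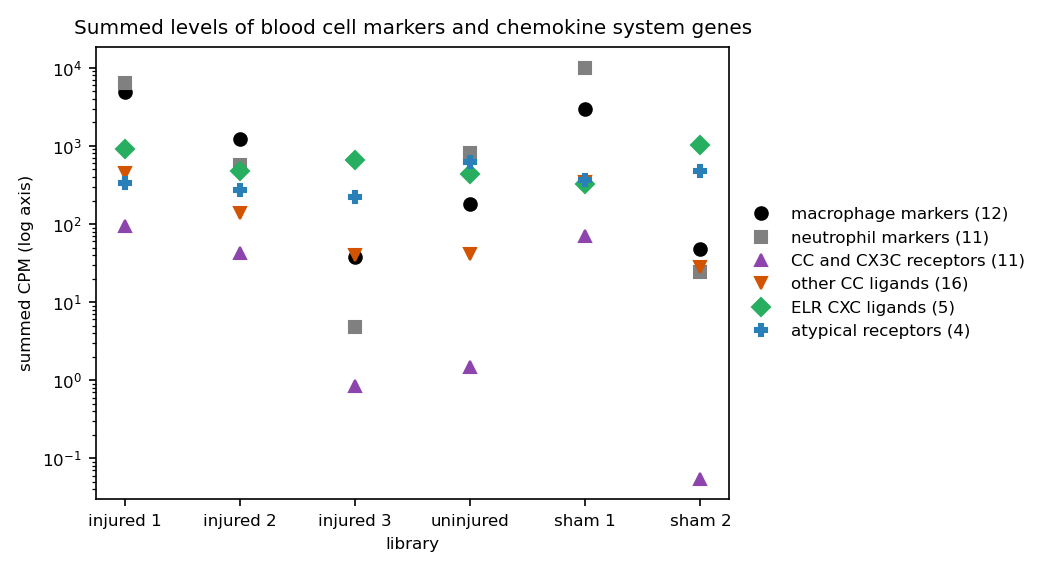
Summed CPM, on a log axis, of macrophage and neutrophil markers and of chemokine system groups in each library. Markers and the CC and CX3C receptors are high in injured 1 and sham 1 and low in injured 3 and sham 2, whereas ELR ligands and atypical receptors stay between 219 and 1041 CPM throughout.

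The remaining CC ligands were scarce. Ccl5, a T cell product, did not exceed 3.35 CPM. Ccl24 had counts in injured 1 (6.74 CPM) and sham 1 (11.3 CPM) alone. Ccl25 and the skin ligands Ccl27a and Ccl27b (near-identical copies) reached at most 5.16, 8.52 and 1.85 CPM. Ccl27a shares exon sequence with Il11ra1 on the other strand, and no source used here states whether counting used strand. Ccl17, Ccl22 and Ccl28 stayed below 0.2 CPM.

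Ccr7 and its ligands Ccl19 and Ccl21 bring dendritic cells and T cells into lymph nodes along lymphatic vessels. Ccl21a stood at 41.4, 10.5 and 0 CPM in the injured libraries, 0.755 CPM in the uninjured library and 110.1 and 0 CPM in the sham libraries. Its near-identical copy Ccl21b stood at 41.3, 6.49 and 0.0214 CPM in the injured libraries, 0.949 CPM in the uninjured library and 77.7 and 0 CPM in the sham libraries. Reads may have been split between these copies and Ccl21c, so their single values are uncertain. Ccl19 was highest in the uninjured library, at 13.3, 1.11 and 0.707 CPM in the injured libraries, 20.7 CPM in the uninjured library and 3.35 and 5.5 CPM in the sham libraries. Ccr7 itself was highest in sham 1, at 3.33, 12.5 and 0 CPM in the injured libraries, 0 CPM in the uninjured library and 28.5 and 0 CPM in the sham libraries. None of them separated the groups.

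Cx3cl1 (fractalkine), anchored in the membrane of endothelial and stromal cells, was lower after injury. It stood at 30.2, 17.9 and 19.1 CPM in injured 1, 2 and 3, against 44.6 CPM in the uninjured library and 52.8 and 65.6 CPM in sham 1 and 2, with no overlap between groups. The mean was 22.4 ± 6.75 CPM in injured cells (SD, n = 3) and 54.4 ± 10.6 CPM in non-injured cells (SD, n = 3). On the log2 scale the difference was -1.40 ± 0.45 (SE; edgeR unadjusted p = 0.0171, adjusted p = 0.865) against sham control and -1.28 ± 0.38 (SE; edgeR unadjusted p = 0.0112, adjusted p = 0.452) against all non-injured cells. Endothelial markers, 9 in number, summed to 242, 122 and 72.4 CPM in injured 1, 2 and 3, against 711 CPM in the uninjured library and 1446 and 0.746 CPM in sham 1 and 2. In sham 2, 2 of the 9 were detected, and the part of endothelial cells in the Cx3cl1 values was not tested. Its receptor Cx3cr1 did not exceed 2.22 CPM in any library.

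Signalling receptors were low outside the libraries with most blood cell transcripts, whose part in these values was not tested. Ccr1, Ccr2, Ccr7, Cxcr2 and Cxcr4 all stood under 2 CPM in injured 3, uninjured and sham 2 and peaked in injured 1 or sham 1, as did Ccl4, Ccl21a, Ccl21b, Ccl24 and Cxcl13. Ccr1 stood at 55.6, 18.9 and 0.129 CPM in the injured libraries, 0 CPM in the uninjured library and 16.9 and 0 CPM in the sham libraries. Ccr2, the receptor of Ccl2 and Ccl7, stood at 13.4, 8.57 and 0.0642 CPM in the injured libraries, 0 CPM in the uninjured library and 18.7 and 0 CPM in the sham libraries. Ccr1 was highest in injured 1 and Ccr2 in sham 1, and for both genes the groups overlapped. The 11 CC and CX3C receptors together summed to 93.5, 42.5 and 0.835 CPM in injured 1, 2 and 3, against 1.46 CPM in the uninjured library and 69.7 and 0.0552 CPM in sham 1 and 2.

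Cxcr2, the neutrophil receptor for the ELR ligands, had 1164 counts in injured 1 (26.3 CPM) and at most 5 in any other library. Neutrophil markers summed to 6395 CPM in injured 1 and 10070 CPM in sham 1, which had no count of Cxcr2. The part of neutrophils in the Cxcr2 counts was not tested. Cxcr4, the receptor of Cxcl12, stood at 15.8, 6.46 and 0.364 CPM in the injured libraries, 1.75 CPM in the uninjured library and 11.6 and 0 CPM in the sham libraries. Cxcr5 did not exceed 2.46 CPM, Cxcr6 0.749 CPM and Ccr9 3.6 CPM, and Ccr4, Ccr8 and Ccr10 had at most 5 counts in any library. Lymphocyte markers, 11 in number, summed to at most 76.9 CPM, in sham 1.

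Atypical receptors held most of the summed receptor CPM in every library. Ackr3, which takes up Cxcl12, stood at 269, 240.2 and 204 CPM in injured 1, 2 and 3, against 485 CPM in the uninjured library and 197 and 413 CPM in sham 1 and 2. Sham 1 was below every injured library, while sham 2 and the uninjured library were above them, and the log2 fold change was -0.36 ± 0.44 (SE; edgeR unadjusted p = 0.436, adjusted p = 0.941) against sham control. Ackr3 was thus present at 204 CPM in injured 3 and 413 CPM in sham 2, where Cxcr4 stood at 0.364 CPM and 0.

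Ackr2, a scavenger of inflammatory CC ligands, was highest in the uninjured library, with 0, 22.3 and 12.3 CPM in the injured libraries, 105 CPM in the uninjured library and 0.432 and 34.8 CPM in the sham libraries. Ackr4, which removes Ccl19 and Ccl21, stood at 12, 0.495 and 2.87 CPM in the injured libraries, 11.8 CPM in the uninjured library and 8.79 and 26 CPM in the sham libraries. Ackr1, carried by erythroid cells and venules, stood at 55.5, 9.17 and 0.0428 CPM in the injured libraries, 16.6 CPM in the uninjured library and 156 and 0.69 CPM in the sham libraries. Ackr1 was highest in sham 1, the library with the highest endothelial, neutrophil and lymphocyte sums. The endothelial sum was 242 CPM in injured 1 and 711 CPM in the uninjured library, where Ackr1 was lower than in injured 1. The part of any of these cells in the Ackr1 values was not tested. For Ackr1, Ackr2 and Ackr4 the groups overlapped (edgeR adjusted p of 0.865 or more against sham control). Exons of Ackr4 overlap Acad11 on the opposite strand and those of Ackr1 overlap Cadm3, so their counts may be mixed.

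Genes around the family were read from lists chosen with earlier results of these data known. Of 9 tested chemokine system genes outside the name rule, 2 were higher and 1 lower against sham control at an edgeR unadjusted p under 0.05, beside 2.44% and 2.20% of all genes, and DESeq2 called 1 each way, beside 1.43% and 0.770%. Mif, a cytokine that binds Cxcr2 and Cxcr4, stood at 776, 513 and 432 CPM in injured 1, 2 and 3, against 62 CPM in the uninjured library and 250 and 247 CPM in sham 1 and 2, a difference of 1.21 ± 0.43 (SE; edgeR unadjusted p = 0.0262, adjusted p = 0.865) on the log2 scale against sham control. The orphan receptor Gpr35 had 27.2, 4.33 and 7.41 CPM in injured 1, 2 and 3 and no count elsewhere, at least 494-fold higher than in all non-injured cells by a mean to which injured 1 gave most. Like Ccl20, it could pass the filter through injured cells alone. Chemerin (Rarres2), which attracts macrophages and dendritic cells, was lower, at 12.8, 9.64 and 4.17 CPM in injured 1, 2 and 3, against 74.6 CPM in the uninjured library and 75.8 and 25.6 CPM in sham 1 and 2, a difference of -2.51 ± 0.68 (SE; edgeR unadjusted p = 0.00824, adjusted p = 0.865) on the log2 scale against sham control. Ppbp had at most 3.64 CPM.

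Cytokines and regulators known to induce or limit stromal chemokines were mostly lower in value in injured cells. Of 23 tested, 9 had a log2 fold change above 0, beside 53.7% of all genes, and the median was -0.49, beside 0.09 over all genes. At an edgeR unadjusted p under 0.05, 4 were lower (Zfp36, Nfkbiz, Irf1 and Cebpd) and 1 higher, beside 2.20% and 2.44% of all genes. Nfkbiz, a nuclear partner of NF-kappaB, stood at 151, 187 and 161 CPM in injured 1, 2 and 3, against 339.9 CPM in the uninjured library and 302 and 475 CPM in sham 1 and 2, a difference of -1.22 ± 0.38 (SE; edgeR unadjusted p = 0.0146, adjusted p = 0.865) on the log2 scale against sham control. Zfp36, which speeds the decay of cytokine and chemokine mRNAs, stood at 287, 182 and 411 CPM in injured 1, 2 and 3, against 1586 CPM in the uninjured library and 1061 and 1149 CPM in sham 1 and 2, a difference of -1.92 ± 0.47 (SE; edgeR unadjusted p = 0.00519, adjusted p = 0.865) on the log2 scale against sham control. The transcription factors Irf1 and Cebpd differed by -1.12 ± 0.40 and -1.14 ± 0.42 on the log2 scale (SE). The gene that was higher, named here after its values were seen, was Il6, at 61.7, 24.3 and 56.1 CPM in injured 1, 2 and 3, against 8.57 CPM in the uninjured library and 12.8 and 18.1 CPM in sham 1 and 2. DESeq2 called Zfp36 and Nfkbiz against sham control, both lower, where 0.770% of all genes were called lower. The cytokines Il17a and Ifng had no count in any library, and Il1b stood at 346, 45 and 1.78 CPM in the injured libraries, 15.2 CPM in the uninjured library and 99.99 and 2.24 CPM in the sham libraries, in the order of the macrophage markers.

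The transducers of chemokine receptor signals and the proteases and sugar carriers that act on chemokines had 30 and 16 genes tested. None of them had an edgeR unadjusted p under 0.05 against sham control, beside 4.64% of all genes. DESeq2 called none, beside 1.43% of all genes called higher and 0.770% lower. With lists this short, a count of none is near these shares. Their median log2 fold changes against sham control were -0.08 and -0.24, beside 0.09 over all genes. The smallest p among transducers belonged to the kinase Ptk2b, the G protein regulators Rgs2 and Rgs16 and the receptor kinase Grk5, with log2 fold changes of -2.19 ± 1.72, 0.68 ± 0.54, -1.45 ± 1.23 and -1.37 ± 1.25 (SE). Among the others it belonged to the heparan sulfate carriers Sdc4, Sdc3 and Gpc1 and the protease Ctsk, with -0.92 ± 0.68, 0.94 ± 0.73, 0.61 ± 0.52 and -0.44 ± 0.42 (SE). Sdc4 (syndecan 4) stood at 132, 269 and 348 CPM in the injured libraries, 608 CPM in the uninjured library and 188 and 760.3 CPM in the sham libraries and overlapped between groups. Dpp4, the protease that inactivates Cxcl12, did not exceed 10.1 CPM.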

How the data were processed

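RNA of sorted mouse skeletal stem cells was sequenced in 6 libraries (injured, n = 3; uninjured, n = 1; sham control, n = 2). The authors deposited whole-number counts per gene, with no row for unassigned reads, and the submitters' processing notes name Salmon 0.12.0, DESeq2 1.22.2, DESeq and the builds GRCm38.p6 and mm9 without saying which step used which. Counts were scaled by TMM and tested with edgeR 4.0.16 (R 4.3.3): filterByExpr with a minimum count of 10, quasi-likelihood F test, Benjamini-Hochberg adjustment over all genes tested, threshold 0.05, with 3 and 4 residual degrees of freedom. The SE of a log2 fold change was derived from the F statistic. Alternatives were DESeq2 1.42.0, limma-voom (limma 3.58.1), other scalings, no filter, each library left out, sham 1 with injured 1 left out, and the replicate number as a block. The tests were also run on simulated counts in which every gene varied alike, which does not show how they behave on these libraries. Members and lists were chosen with earlier results of these data known. Named with all values were Cxcl5, Cxcl12, members averaging 10 CPM or more and those with an edgeR unadjusted p under 0.05. For the lists of chemokine system genes, inducers, transducers and proteases with carriers, the genes with the 4 smallest p were named. Some of these have a log2 fold change or a highest value only. Marker lists were given as sums or by single genes. Symbols that a spreadsheet had turned into dates were left as they are. Per-kilobase values used GENCODE M21 transcripts, matched for 59 of 60 members, and promoters came from RefSeq (GRCm38.p6), matched for 44. Bounds against groups without counts use 3 counts over the group and cover counting error only. The values of 1 member are not reported here.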

Additional observations from a re-analysis of the deposited data

How the results depend on the processing

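No gene passed an adjusted p of 0.05 by edgeR in either comparison. DESeq2 called 369 genes against sham control and 345 against all non-injured cells, among them 1 and 3 members. limma-voom called 1 and 7 genes, and edgeR without a low-count filter 3 and 5. At an unadjusted p under 0.05 DESeq2 gave 9 members against sham control in place of 4, while all genes gave 9.64% in place of 4.64%. Leaving out sham 1 and injured 1 together gave 12 members against sham control and 11 against all non-injured cells, beside 11% and 10.4% of all genes. Leaving out 1 library gave 1 to 9 members against sham control, where all genes gave 2.23% to 10.6%, and 4 to 11 against all non-injured cells, where they gave 4.75% to 9.75%. Of the 24 named members, 10 kept their direction against sham control under all alternatives run (Ackr4, Ccl11, Ccl2, Ccl20, Ccl7, Ccl9, Ccr1, Cx3cl1, Cxcl14 and Cxcl5) and 15 against all non-injured cells. A fit without 1 sham library leaves 1, assumed to vary like the others. Ccl4, Ccl6, Ccl21a, Ccl21b and Ccr1 have no count in sham 2, so their fitted fold changes without sham 1 depend on the prior count and are no bounds. Ccr1 kept its direction against sham control, but its log2 fold change ran from 0.17 to 13.15. The cause of the other sign changes was not tested.

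With sham 1 and injured 1 left out together the log2 fold change against sham control changed sign to 2.73 for Ackr1, -0.35 for Ccl8, 10.92 for Ccl21a, 10.23 for Ccl21b, 10.65 for Ccl4 and 13.47 for Ccl6. With limma-voom the log2 fold change against sham control changed sign to 0.52 for Ccl21a, 1.02 for Ccl21b, 0.18 for Cxcl1, -0.090 for Ccl3, 2.95 for Ccl4 and 4.05 for Ccl6. With scaling by library size alone the log2 fold change against sham control changed sign to 0.030 for Cxcl2 and 0.035 for Cxcl12. Leaving out 1 library at a time, the sign of these genes changed against sham control in at least 1 case, with log2 fold changes of -4.09 to 4.96 for Ackr1, -1.59 to 4.73 for Ackr2, -0.80 to 0.27 for Ackr3, -0.39 to 2.24 for Ccl8, -3.39 to 12.63 for Ccl21a, -3.57 to 12.51 for Ccl21b, -1.46 to 1.97 for Cxcl1, -0.90 to 0.36 for Cxcl2, -0.42 to 1.09 for Cxcl3, -2.02 to 3.59 for Ccl3, -3.13 to 13.26 for Ccl4, -1.08 to 14.52 for Ccl6, -0.31 to 0.10 for Cxcl12 and -0.004 to 2.93 for Cxcl16. With limma-voom the log2 fold change against all non-injured cells changed sign to 0.76 for Ccl21a, 1.06 for Ccl21b and 0.034 for Cxcl1. With sham 1 and injured 1 left out together the log2 fold change against all non-injured cells changed sign to 3.79 for Ccl21a, 2.77 for Ccl21b and -0.044 for Cxcl2. With DESeq2 the log2 fold change against all non-injured cells changed sign to -0.012 for Ccl4. With relative log expression scaling the log2 fold change against all non-injured cells changed sign to -0.012 for Ccl4. With scaling by library size alone the log2 fold change against all non-injured cells changed sign to -0.008 for Ccl4. Leaving out 1 library at a time, the sign of these genes changed against all non-injured cells in at least 1 case, with log2 fold changes of -3.65 to 1.32 for Ackr1, -2.81 to 5.50 for Ccl21a, -3.005 to 5.05 for Ccl21b, -0.95 to 0.53 for Cxcl1, -0.54 to 0.82 for Cxcl2, -1.55 to 3.29 for Ccl3, -2.55 to 13.26 for Ccl4, -0.54 to 4.93 for Ccl6 and -0.13 to 0.38 for Cxcl12.

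Whether replicate numbers pair the libraries could not be decided. Deviations were taken from the group mean, so those of sham 1 and sham 2 mirror each other. Those of sham 1 and injured 1 had a Pearson r of 0.353 and those of sham 2 and injured 2 of 0.011. A replicate block, without the uninjured library, called 0 genes by edgeR. It gave 2 of 40 members at an edgeR unadjusted p under 0.05, Cxcl5 and Ccl9 (5%, beside 4.04% of all genes). The same libraries without the block gave 4, namely Cxcl5, Ccl20, Ccl7 and Cx3cl1 (10%, beside 5.47% of all genes). Ccl11 was thus already missing once the uninjured library was left out. With the replicate block the log2 fold change against sham control changed sign to 1.02 for Ackr1, 2.81 for Ccl21a, 2.88 for Ccl21b, 0.26 for Cxcl2, 3.31 for Ccl4, 4.50 for Ccl6 and 0.010 for Cxcl12.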
